A study of Mus musculus with 8 samples.

Results

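The genes described here are 10 genes of the methionine cycle and of transsulfuration, Cth, Cbs, Bhmt, Bhmt2, Mat1a, Mat2a, Gnmt, Ahcy, Got1 and Pemt, chosen by symbol. All 10 were found among the 15283 genes of the bulk liver table and among the 22578 genes of the table of liver nuclei. They were chosen with their values in these samples in view, above all their levels in the hepatocyte clusters of the nuclei and their bulk differences. The cluster levels are therefore given as a description with no test, and the bulk values do not serve as independent evidence of a direction.

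All mice carried floxed Tgfbr1 alleles, which encode the TGF-beta type I receptor, and all had eaten a MASH diet, a model of metabolic dysfunction-associated steatohepatitis, for 30 weeks. Control mice carried the floxed alleles alone (flox/flox). The Tgfbr1 MKO mice also carried LysMcre, a Cre recombinase driven by the myeloid Lyz2 locus, a driver of myeloid cells and not of hepatocytes. There were 3 bulk liver libraries of each genotype, and nuclei were sequenced as 1 pool of 3 liver samples per genotype, averaged by the authors over 13 clusters. Age, sex and strain were not given in the sources used here, and neither was any link between the pooled livers and the bulk libraries.

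The methionine cycle turns methionine into S-adenosylmethionine, the methyl donor of most methylation reactions in the cell, and passes through S-adenosylhomocysteine to homocysteine. Homocysteine is then either methylated back to methionine, with betaine or folate as the methyl source, or drained through cystathionine into cysteine, the step called transsulfuration, which feeds glutathione and taurine. The liver is the main organ of methionine breakdown, and several of these enzymes are hallmarks of the differentiated hepatocyte. Mat1a makes S-adenosylmethionine in hepatocytes, and Mat2a does so in most other cells. Gnmt spends S-adenosylmethionine on glycine, and Pemt spends it on making phosphatidylcholine from phosphatidylethanolamine. Ahcy splits S-adenosylhomocysteine. Bhmt returns homocysteine to methionine with betaine, and Bhmt2 does so with S-methylmethionine. Cbs and Cth are the first and second enzymes of transsulfuration. Got1, cytosolic aspartate aminotransferase, can also transaminate cysteine sulfinate, a breakdown product of cysteine.

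Promoters are shown for the members whose level in the nuclei of cluster 3, a hepatocyte-like cluster, was at least 2-fold higher in the MKO pool than in the control pool, since these carry the pattern described further on. Of those 5 genes Bhmt, Bhmt2, Gnmt and Got1 have an entry in the RefSeq table of promoters used here (GRCm38.p6, the assembly of mm10), and Cth has none. Each window runs from 250 bases before to 50 bases after the annotated start, 5′ to 3′ on the gene's own strand, which is the minus strand for all of them. Capitals mark a match to TGATGNAA, the core of the composite site bound by C/EBP and ATF4, read on the opposite strand. The windows are chr13:93637709-93638008 for Bhmt, chr13:93674253-93674552 for Bhmt2, chr17:46729116-46729415 for Gnmt and chr19:43524556-43524855 for Got1.
Bhmt: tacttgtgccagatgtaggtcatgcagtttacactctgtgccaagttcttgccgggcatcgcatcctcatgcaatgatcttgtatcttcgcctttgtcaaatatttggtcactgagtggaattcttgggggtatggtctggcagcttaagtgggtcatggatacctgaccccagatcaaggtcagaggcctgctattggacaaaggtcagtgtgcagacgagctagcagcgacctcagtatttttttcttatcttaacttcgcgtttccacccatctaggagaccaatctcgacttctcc
Bhmt2: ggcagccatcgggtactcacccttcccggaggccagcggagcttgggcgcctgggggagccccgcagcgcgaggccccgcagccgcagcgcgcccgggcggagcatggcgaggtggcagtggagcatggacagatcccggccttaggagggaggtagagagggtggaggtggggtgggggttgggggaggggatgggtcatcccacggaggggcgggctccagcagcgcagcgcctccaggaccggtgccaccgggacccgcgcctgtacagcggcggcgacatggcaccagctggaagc
Gnmt: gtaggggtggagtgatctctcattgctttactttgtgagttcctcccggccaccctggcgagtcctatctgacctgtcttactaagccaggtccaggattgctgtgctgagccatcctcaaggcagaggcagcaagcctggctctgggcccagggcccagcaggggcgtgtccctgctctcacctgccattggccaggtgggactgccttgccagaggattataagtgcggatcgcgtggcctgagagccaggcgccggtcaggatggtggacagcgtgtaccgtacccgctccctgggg
Got1: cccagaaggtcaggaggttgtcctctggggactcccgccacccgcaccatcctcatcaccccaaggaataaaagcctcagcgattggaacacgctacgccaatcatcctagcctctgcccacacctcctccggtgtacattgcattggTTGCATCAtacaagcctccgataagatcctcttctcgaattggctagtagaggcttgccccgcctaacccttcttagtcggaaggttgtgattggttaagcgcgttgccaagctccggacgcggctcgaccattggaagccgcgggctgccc
In all, 8 of the 10 members had a promoter entry (Cth and Mat1a did not). Both strands were searched for the TATA box TATAAA, the cAMP response element TGACGTCA, the C/EBP-ATF4 core TGATGNAA, the E-box CACGTG and the antioxidant response element TGACNNNGC. The others were the C/EBP motif TTGCNNCAA, the HNF4 motif CAAAGTCCA, the glucocorticoid receptor motif AGAACA and the HNF1 motif GTTAAT. Got1 held TGATGNAA, a motif present in 3.91% of all 32544 promoters of the table. The windows of Bhmt, Bhmt2, Gnmt and Ahcy held none of the 9 motifs, and no 2 matches overlapped in any window. Cbs held CACGTG (7.17% of promoters) and Mat2a held TATAAA (13.6%). Pemt held AGAACA (18.9%) in its window at chr11:60036956-60037255 and no motif in its window at chr11:60040139-60040438. The 4 promoters printed shared no motif of the list.

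The bulk libraries held 17448117 to 23986319 reads recovered from the deposited values, which are counts divided by 1 size factor per library and are called scaled counts here. The 3 controls held 737, 810 and 777 scaled counts of Tgfbr1 itself against 560, 857 and 735 in MKO 1 to 3, so the groups overlapped in whole liver, and the macrophage-like cluster 2 gave 13.5 in control nuclei and 4.87 in MKO nuclei. The summed level of 8 macrophage markers was 3097 to 7880 in controls and 9364 to 15215 in MKO livers, with 4 of the 8 called higher. The sum of 10 hepatocyte markers was 1741587 to 2510669 in controls and 1786569 to 2116469 in MKO livers. The part of these shifts in the results below was not tested. In bulk tissue, fewer cells of a type and less RNA per cell cannot be told apart. That each library is a separate mouse is not stated beyond its replicate number, and the p-values then reflect variation among these samples, which may be technical.

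In bulk liver none of the 10 members passed the test between genotypes. A gene was called at a Benjamini-Hochberg adjusted p under 0.05 in limma's test on log2(scaled count + 1), a scale that understates the change of low genes. By this rule 3.05% of the 15249 genes tested were called in either direction, against 0 of 10 members, whose adjusted p ran from 0.464 to 0.938. At an unadjusted p under 0.05 the counts were 0 members by limma (12.1% of genes), 2 by edgeR (12.3%) and 1 by DESeq2 (10.6%). After adjustment edgeR and DESeq2 also called 0 members (3.16% and 4.49% of genes). The authors' deposited table called 1 of 10, Cth, with a log2 fold change of 0.96 and an adjusted p of 0.0398, where 5.76% of its genes were called. In no member did the control and MKO libraries separate without overlap, which they did in 19.4% of genes.

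MKO 3 gave the highest of the 6 values in 8 of the 10 members, all but Mat2a and Pemt, and did so in 18.2% of all genes tested. In 5 members (Cth, Bhmt, Mat1a, Ahcy and Got1) its value was at least 1.5 times that of the next library, which held for 1.67% of genes. These values come from the contrast used to choose the members, so the shares are given side by side with nothing read from them. MKO 3 was also the most deeply read library, at 23986319 reads, close to the 23673147 of control 2, and its sum of hepatocyte markers lay inside the control range; the part of depth was not tested. Together the 10 members made up 0.708%, 0.763% and 0.716% of all scaled counts in controls 1 to 3, and 0.806%, 0.896% and 1.78% in MKO 1 to 3.

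**Figure D1:**
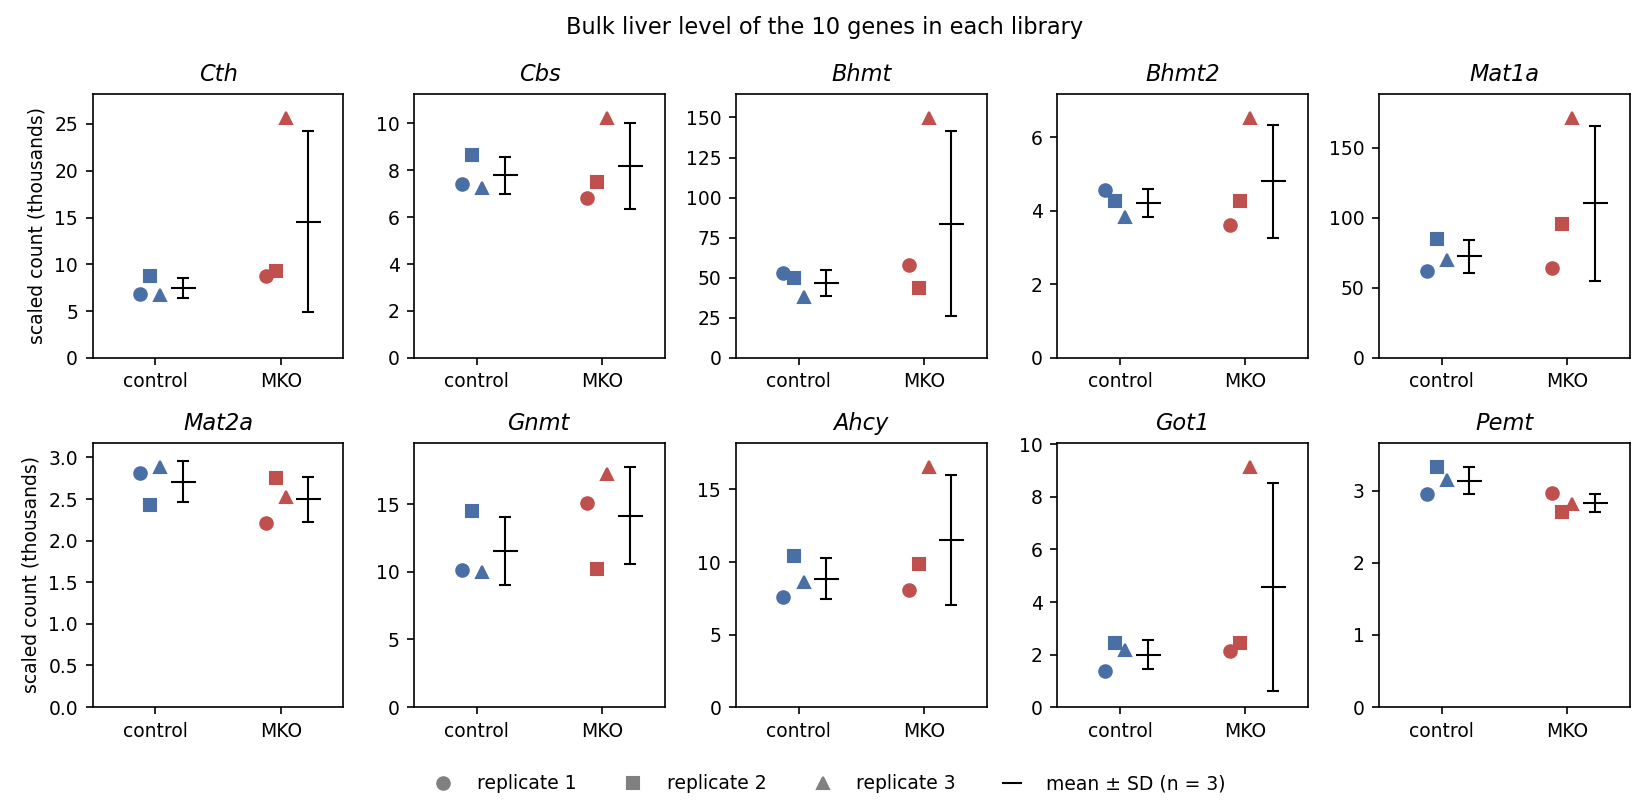
Scaled count (y axis, from 0, in units of 1000) of each of the 10 genes in every bulk library, with control in blue, MKO in red, the marker shape giving the replicate, and the mean with SD (n = 3) beside each group. In Cth, Bhmt and Got1 the MKO triangle (replicate 3, at 25686, 149966 and 9150) stands above the other 5 libraries, while in Mat2a and Pemt it lies among them.

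Mat1a (mm10 chromosome 14, 41105035 to 41124412, + strand) had the highest level per length of the 10 in controls. It was read at 62085, 85016 and 70069 in controls 1 to 3 and at 64391, 95214 and 171563 in MKO 1 to 3. Only MKO 3 and MKO 2 lay above the control range, and MKO 1 lay inside it. The mean went from 72390 ± 11640 to 110389 ± 55174 (SD, n = 3 each). Its log2 fold change was 0.50 (limma, SE 0.36, adjusted p = 0.661), and 0.13 (adjusted p = 0.907) without MKO 3. Mat2a (chromosome 6, 72432799 to 72439558, - strand) was at 2810, 2430 and 2889 in controls 1 to 3 and at 2218, 2755 and 2521 in MKO 1 to 3. The groups overlapped and MKO 3 did not stand apart (log2 fold change -0.12 ± 0.12, limma adjusted p = 0.783). Mat2a is overlapped on the other strand by the transcript Particl, which held 42.8 to 58.1 scaled counts.

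The methyltransferases showed little of the pattern of Mat1a. Gnmt (chromosome 17, 46725664 to 46729168, - strand) held scaled counts of 10138, 14462 and 10013 in controls 1 to 3 and of 15054, 10177 and 17234 in MKO 1 to 3. MKO 1 and MKO 3 were above every control and MKO 2 was among them, with a log2 fold change of 0.28 ± 0.23 (limma adjusted p = 0.706). Pemt (chromosome 11, 59970614 to 60046489, - strand) was at 2948, 3332 and 3143 in controls 1 to 3 and at 2966, 2710 and 2815 in MKO 1 to 3. Relative to their mean its libraries varied least of the 10, with means of 3141 ± 192 and 2830 ± 129, and MKO 1 kept the groups from separating (log2 fold change -0.15 ± 0.10, limma adjusted p = 0.653).

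Ahcy (chromosome 2, 155059310 to 155074497, - strand) held scaled counts of 7577, 10387 and 8607 in controls 1 to 3 and of 8055, 9866 and 16569 in MKO 1 to 3, so only MKO 3 lay outside the control range. The log2 fold change was 0.32 ± 0.26 (limma adjusted p = 0.703), and 0.02 without MKO 3. How reads were assigned matters for this gene. Of the 50-base stretches of its transcripts, 77.0% also occur in other genes, and 74.1% occur in the gene model Gm4737. Gm4737 itself was listed at 19629 to 24980 in controls and at 22616, 21859 and 39415 in MKO livers, more than Ahcy in every library. The sum of both was 30472 ± 4317 in controls and 39460 ± 14320 in MKO livers, with MKO 3 at 1.58 times the next library, so the pattern over libraries was the same for the sum as for Ahcy alone.

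The betaine enzyme Bhmt (chromosome 13, 93616675 to 93637961, - strand) held one of the largest gaps. It was read at 52875, 50016 and 37781 in controls 1 to 3 and at 57686, 43598 and 149966 in MKO 1 to 3. MKO 2 lay inside the control range, MKO 1 just above it, and MKO 3 was 2.60 times the highest of the other 5 libraries. The means were 46891 ± 8017 and 83750 ± 57776, a log2 fold change of 0.64 ± 0.42 (limma adjusted p = 0.630), and of 0.11 (adjusted p = 0.904) without MKO 3. Of its 50-base stretches, 56.9% also occur in Gm5096, which was listed at 378 to 480 in controls and at 546, 379 and 1338 in MKO livers. Gm15622, which overlaps Bhmt on the opposite strand, was at 18.7 to 40.9 in controls and at 45.2, 29.6 and 246 in MKO livers. Strand use in the counting was not given in the sources used here. Reads of Bhmt and of its antisense partner cannot be told apart. The sum of Bhmt and Gm15622 was 46919 ± 8025 in controls and 83857 ± 57896 in MKO livers. For Bhmt and Gm5096 the sum was 47312 ± 8040 and 84504 ± 58288. In both sums MKO 3 was 2.60 times the next library, so the pattern over libraries was the same as for Bhmt alone.

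Bhmt2 lies beside Bhmt (chromosome 13, 93655720 to 93674302, - strand) and shares only 6.32% of its 50-base stretches with other genes. It was read at 4577, 4269 and 3827 in controls 1 to 3 and at 3608, 4282 and 6542 in MKO 1 to 3. MKO 3 was 1.43 times the next library, and MKO 1 was below every control. The log2 fold change was 0.14 ± 0.21 (limma adjusted p = 0.848), and it turned to -0.10 without MKO 3.

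In transsulfuration the second enzyme differed between libraries more than the first. Cbs (chromosome 17, 31608894 to 31637238, - strand) held scaled counts of 7431, 8674 and 7248 in controls 1 to 3 and of 6813, 7506 and 10252 in MKO 1 to 3, with MKO 3 only 1.18 times the highest control. Its log2 fold change was 0.06 ± 0.17 (limma adjusted p = 0.938), and it turned to -0.12 without MKO 3. Cth (chromosome 3, 157894248 to 157925077, - strand) was at 6866, 8724 and 6768 in controls 1 to 3 and at 8706, 9237 and 25686 in MKO 1 to 3. MKO 1 lay inside the control range, MKO 2 just above it, and MKO 3 was 2.78 times the next library. The means of Cth were 7453 ± 1102 and 14543 ± 9654, 1.95-fold apart, with a log2 fold change of 0.78 ± 0.37 and a limma adjusted p of 0.464. Without MKO 3 the log2 fold change of Cth was 0.28 (adjusted p = 0.596). Cth shares no 50-base stretch with another gene, so its value does not rest on how shared reads were split. The other gene model on its strand, Gm43314, was at 241 to 712 in controls and at 79.5 to 648 in MKO livers.

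Got1 (chromosome 19, 43499752 to 43524605, - strand) had the largest log2 fold change of the 10. It was read at 1384, 2428 and 2173 in controls 1 to 3 and at 2141, 2452 and 9150 in MKO 1 to 3. MKO 1 lay inside the control range and MKO 2 just above it, while MKO 3 was 3.73 times the next library. The means were 1995 ± 544 and 4581 ± 3960, a log2 fold change of 0.91 ± 0.50 (limma adjusted p = 0.538), and of 0.24 (adjusted p = 0.752) without MKO 3. In the authors' deposited table Got1 had a log2 fold change of 1.20 and an adjusted p of 0.336.

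Set per kilobase of exon, the order in controls ran from Mat1a (20874 ± 3356 scaled counts per kb, SD, n = 3) and Bhmt (18832 ± 3220) through Gnmt (11147 ± 2448), Cth (4106 ± 607), Ahcy (3483 ± 559), Pemt (2743 ± 168), Bhmt2 (1712 ± 153), Cbs (1243 ± 124) and Got1 (969 ± 264) to Mat2a (800 ± 72.3). Mat1a and Bhmt, Cth and Ahcy, Cbs and Got1, and Got1 and Mat2a are neighbours in this order whose ranges of mean ± SD overlap; for the others they do not. In MKO livers the same scale gave 33635 ± 23203 for Bhmt and 31831 ± 15909 for Mat1a.

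Genes of neighbouring routes were counted in 13 lists and read against the same library. Of the 20 genes of amino acid catabolism, 0 were called by limma (0 also at an unadjusted p under 0.05), and 15 were highest in MKO 3 (18.2% of all genes tested). Aass, the first enzyme of lysine breakdown, was at 6130 to 7806 in controls and at 6668, 6703 and 24307 in MKO livers. Arg1, the last enzyme of the urea cycle, was at 22220 to 33004 in controls and at 22842, 29869 and 65158 in MKO livers. Cps1, the first enzyme of that cycle, was at 41466, 49187 and 48767 in controls 1 to 3 and at 33390, 78314 and 99050 in MKO 1 to 3, so there MKO 2 was high as well.

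Of 12 genes typical of periportal hepatocytes, 8 were highest in MKO 3, and in 6 of these (Hal, Sds, Ass1, Gls2, Arg1 and Etnppl) it was at least 1.5 times the next library. Of 12 genes typical of pericentral hepatocytes 2 were highest there. Over all genes tested 18.2% were highest in MKO 3, and in 1.67% it was at least 1.5 times the next library. Among 11 genes of serine and glycine metabolism 6 were highest in MKO 3, among them Agxt, a peroxisomal aminotransferase of glyoxylate and alanine, at 4428 to 6793 in controls and at 7881, 4657 and 17872 in MKO livers. In the remaining lists the share highest in MKO 3 ran from 1 of 8 (further methionine cycle genes) to 4 of 12 (amino acid response among others). Several of the genes named here stand in more than 1 list, and the lists were chosen with earlier results of these data known. The mean log2 score of the list in MKO 3, relative to the mean over 6 libraries, was 0.76 for the 10 members, 0.54 for amino acid catabolism, 0.59 for the periportal list, 0.01 for the pericentral list and -0.01 for 17 liver transcription factors.

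**Figure D2:**
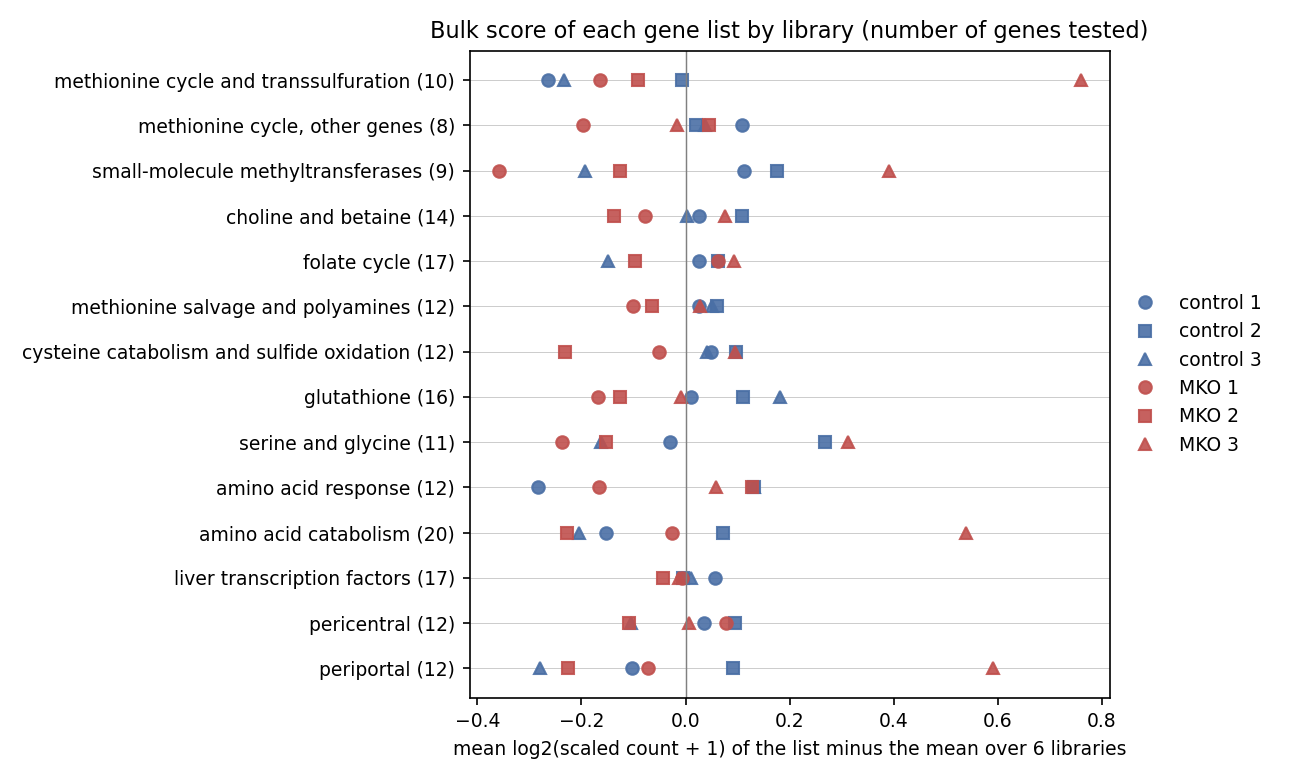
Mean log2(scaled count + 1) of each gene list in each bulk library minus its mean over the 6 libraries (x axis), with the number of genes tested in brackets, control libraries in blue and MKO libraries in red. MKO 3 (red triangle) stands at 0.76 for the methionine genes, 0.59 for the periportal list and 0.54 for amino acid catabolism, and near 0 for the pericentral genes and the liver transcription factors.

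Between genotypes, 1 gene of the 13 lists passed the test. Gclc, the catalytic subunit of the rate-limiting enzyme of glutathione synthesis, to which transsulfuration supplies cysteine, fell from 11018, 10651 and 12113 in controls to 7716, 5539 and 5066 in MKO livers. Among the genes of the 11 lists other than the zonal ones edgeR and DESeq2 each also called 1 lower and 0 higher. The groups of Gclc did not overlap, and its log2 fold change was -0.91 ± 0.17 (limma adjusted p = 0.0257). The call was lost without any single library other than MKO 1 (adjusted p up to 0.118). Of the 16 glutathione genes tested 15 were not called, and the list's median log2 fold change was -0.21, beside -0.02 over all genes.

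No other gene of the cycle was called. The 8 further methionine cycle genes had a median log2 fold change of -0.15, with Mmadhc, which handles the cobalamin needed by methionine synthase, at 1630 ± 134 in controls and 1391 ± 65.7 in MKO livers (limma adjusted p = 0.467). Among 12 genes of cysteine catabolism and sulfide oxidation, Cdo1, which oxidises cysteine to its sulfinate, was at 35823 ± 3111 and 31509 ± 5721 (adjusted p = 0.757). Ado, which oxidises cysteamine, was at 472 ± 19.1 and 349 ± 32.5 (adjusted p = 0.126). Chpt1, the last enzyme of the choline route to phosphatidylcholine and so the counterpart of Pemt, was at 7320 ± 349 and 5782 ± 292 (log2 fold change -0.34 ± 0.11, limma adjusted p = 0.220). In the folate list Ftcd, an enzyme of histidine breakdown, was at 10096 ± 2514 and 11644 ± 3754 (adjusted p = 0.861). Psat1, an enzyme of serine synthesis, was low in all livers, at 44.5, 71.4 and 53.2 in controls 1 to 3 and 24.4, 41.8 and 24.1 in MKO 1 to 3 (limma adjusted p = 0.235). The amino acid response factor Atf5 was at 10878 ± 1070 and 10745 ± 1878 (adjusted p = 0.970).

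Other genes taken from the lists, by highest mean or smallest p, did not pass either. Ahcyl1, a relative of Ahcy, was at 2408 ± 56.4 in controls and 2172 ± 161 in MKO livers (limma adjusted p = 0.647). Pcyt2, of phosphatidylethanolamine synthesis, was at 9727 ± 1150 and 9581 ± 1191 (0.975), Adi1, of methionine salvage, at 2316 ± 85.3 and 1958 ± 104 (0.383), and Glyctk, a glycerate kinase, at 8926 ± 398 and 9883 ± 3781 (0.958). Folr2, a folate receptor that also marks liver macrophages, was at 62.0 ± 43.3 and 154 ± 17.8 (0.276) beside the higher macrophage marker sums given above. Among the regulators, Hnf4a, a hepatocyte transcription factor, was at 15381 ± 1701 and 13825 ± 2405 (0.783), Nr0b2, a bile acid responsive repressor, at 877 ± 208 and 545 ± 282 (0.384), and Ddit4, a stress-induced gene, at 63.4 ± 5.01 and 100.4 ± 31.6 (0.393).

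Nnmt, which uses S-adenosylmethionine to methylate nicotinamide, varied more between libraries than any member. It was read at 603, 752 and 147 in controls 1 to 3 and at 28.1, 606 and 2409 in MKO 1 to 3, and it too was highest in MKO 3. Of the 9 small-molecule methyltransferases tested it alone was at least 1.5 times higher there than in the next library, beside 1.67% of all genes tested.

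The nuclei show in which cells the genes were read. Values are the authors' mean levels per gene, cluster and pool, with every column summing to 10000. With 1 pool per genotype there is no replicate check and no test, and how many nuclei lie behind each mean was not given in the sources used here. Clusters 0, 1 and 3 each had 4 of 10 hepatocyte markers (Apob, Cps1, Hnf4a and either Cyp3a11 or Ahsg) at least 2-fold over the mean of all other clusters. That mean included the rest of these 3 clusters. They are called hepatocyte-like. Alb was not among the 4: its mean over the 3 clusters was only 1.35 times that over the other 10 clusters in the control pool and 1.15 times in the MKO pool. Alb was read in all of the other 10 clusters too, with a median of 29.2 in control nuclei and 47.2 in MKO nuclei. The source of the levels of hepatocyte genes outside the 3 clusters was not tested. In clusters 0, 1 and 3 the 8 macrophage markers summed to at most 0.113 in control nuclei and 0.310 in MKO nuclei.

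Of the 10 members, 9 were read mainly in the 3 hepatocyte-like clusters. Their unweighted mean there was 5.50 to 25.3 times the mean of the other 10 clusters. Mat2a was the exception, at 0.860 times for control nuclei and 0.811 times for MKO nuclei, with levels of 0.529 to 2.62 in the other control clusters. Outside the 3 clusters the 10 members together reached 4.6 to 9.0 per 10000 in the control pool and 5.70 to 8.55 in the MKO pool. Bhmt was higher in the MKO pool in 10 of these 10 clusters (median 0.356 in control and 1.23 in MKO), as Alb was, while Cth was higher in 2 of 10.

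The control and MKO pools differed in opposite directions between clusters. In cluster 3 the sum of the 10 members was 55.6 in control nuclei and 150.4 in MKO nuclei. It was 71.2 and 32.6 in cluster 1, and 40.9 and 30.5 in cluster 0. The 10 hepatocyte markers also differed between pools. They summed to 177 and 228 in cluster 3 and to 219 and 204 in cluster 1, the same directions as the members. In cluster 0 the markers summed to 117 and 185, the opposite direction. The part of these marker shifts in the members' differences was not tested. All 10 members were higher in the MKO pool in cluster 3, though Mat2a only from 1.23 to 1.27. In cluster 1, 9 of 10 were lower in that pool, and in cluster 0, 7 of 10. How many of all genes went each way was not counted. The level floor (1.22 to 1.24) was the 90th percentile of each gene's larger pool level where that was not 0. A gene passed it if either pool reached it, which Ahcy did not in clusters 0, 1 and 3. Over all genes past it the median log2 ratio of MKO over control was -0.12 in cluster 3, -0.08 in cluster 1 and -0.06 in cluster 0. In cluster 1 Pemt (-0.12) and Mat2a (-0.15) lay near that median. Among members past the floor, 5 of 9 were at least 2-fold higher in the MKO pool in cluster 3, against 3.99% of the genes past it. None of the 9 was 2-fold lower there (3.5% of genes). In cluster 1, 4 of 9 were at least 2-fold lower (1.47%) and 0 were higher (1.67%), and in cluster 0, 1 of 8 was lower (1.48%) and 0 were higher (1.96%). Of the 4 lower in cluster 1, Cbs (2.22 in control nuclei and 1.04 in MKO nuclei) and Got1 (2.33 and 0.634) reached the floor in the control pool only. These levels chose the members, so nothing is read from the shares.

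**Figure D3:**
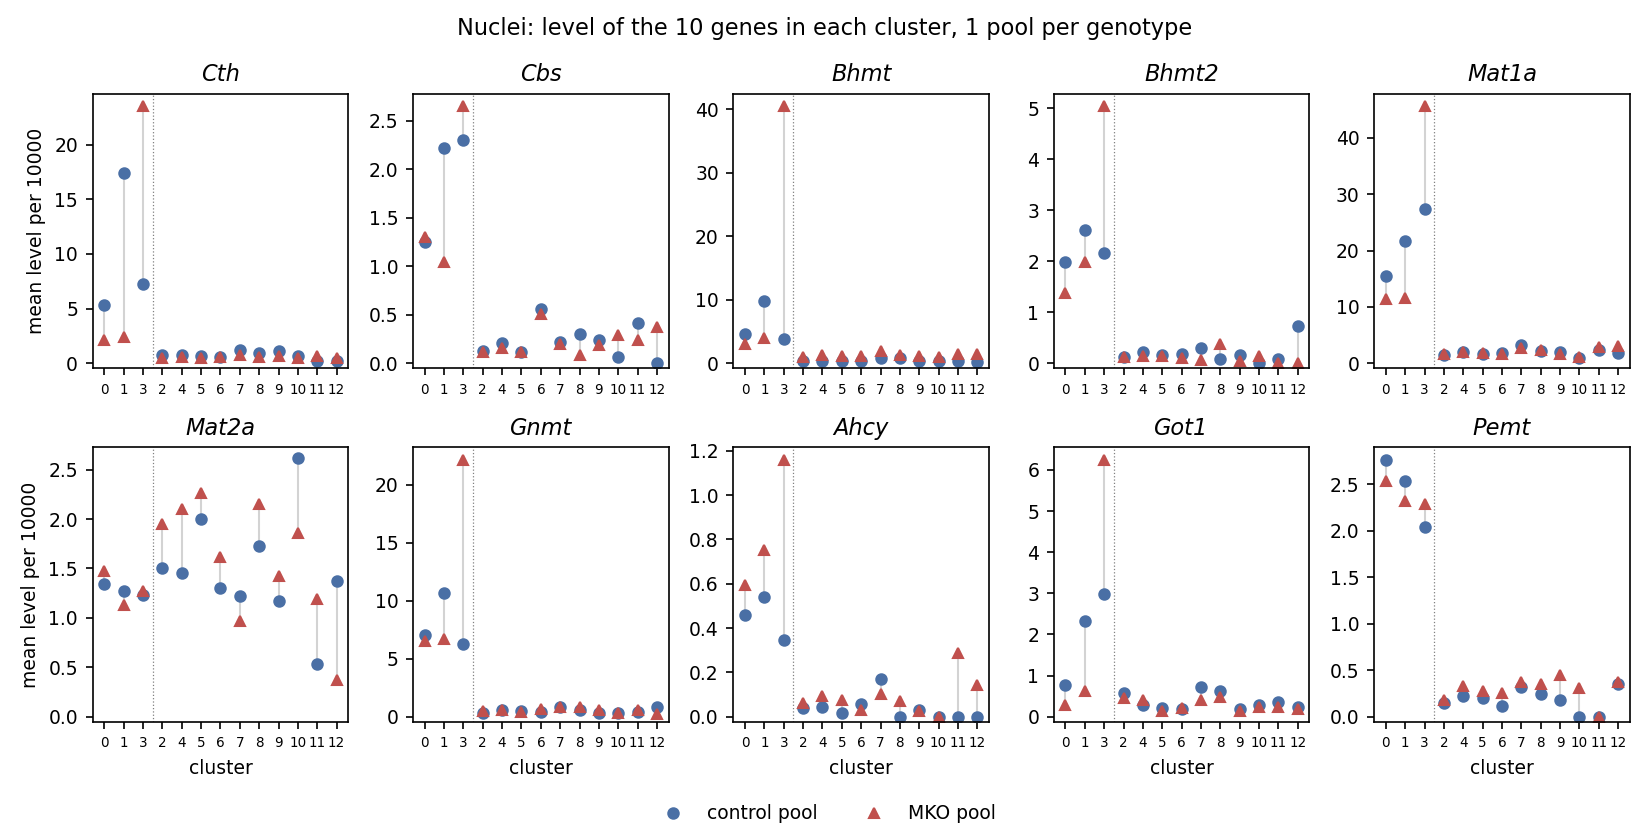
Mean level per 10000 (y axis, from 0) of each gene in the 13 clusters of nuclei, hepatocyte-like clusters 0, 1 and 3 to the left of the dotted line, with the control pool as blue circles and the MKO pool as red triangles (1 pool each). In Cth, Bhmt, Gnmt and Got1 the MKO pool is highest in cluster 3 (23.5, 40.4, 22.2 and 6.25) and below the control pool in clusters 0 and 1, and Mat2a alone is as high outside the hepatocyte-like clusters as in them.

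Bhmt had the widest span. Its level was 4.56 in control nuclei and 2.94 in MKO nuclei in cluster 0, 9.76 and 3.94 in cluster 1, and 3.75 and 40.4 in cluster 3. The last pair is 10.8-fold apart, the highest of the 2056 ratios past the floor in that cluster, and it moved Bhmt from rank 439 to rank 10 among the levels of cluster 3. The antisense gene Gm15622 moved with it, from 0.578 to 6.31. Bhmt2, next to Bhmt on the chromosome, was at 2.15 in control nuclei and 5.03 in MKO nuclei in cluster 3, and at 1.98 and 1.37 in cluster 0 and 2.60 and 1.99 in cluster 1.

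Cth was highest in cluster 1 of the control pool, at 17.4, and was at 2.36 in that cluster of the MKO pool. In cluster 3 the order was the other way round, with 7.27 in control nuclei and 23.5 in MKO nuclei, and in cluster 0 the levels were 5.30 and 2.15. The peak of Cth thus lay in cluster 1 in one pool and in cluster 3 in the other. Cbs, the enzyme before it, was at 2.22 and 1.04 in cluster 1 and at 2.30 and 2.65 in cluster 3, so it shared the lower level in cluster 1 with little difference in cluster 3.

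Gnmt was at 6.27 in control nuclei and 22.2 in MKO nuclei in cluster 3, and at 10.7 and 6.73 in cluster 1. Mat1a was among the most abundant genes of the nuclei, at 27.3 and 45.7 in cluster 3, 21.8 and 11.7 in cluster 1, and 15.4 and 11.4 in cluster 0. Got1 was at 2.98 and 6.25 in cluster 3 and at 2.33 and 0.634 in cluster 1, and was below the floor in cluster 0. Like Cth and Bhmt, all 3 were lower in MKO nuclei in cluster 1 and higher in cluster 3, but in control nuclei Mat1a and Got1 were already highest in cluster 3.

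Pemt and Mat2a hardly differed between pools. Pemt was at 2.76 and 2.53 in cluster 0, 2.53 and 2.32 in cluster 1, and 2.04 and 2.29 in cluster 3. Mat2a was at 1.34 and 1.47, 1.27 and 1.13, and 1.23 and 1.27 in the same clusters. Ahcy was below the floor in all 3 clusters, with its highest level, 1.16, in cluster 3 of the MKO pool, and no ratio is given for it.

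The zonal markers place the clusters only in part, and they too differed between pools. Cyp2e1, a pericentral gene, was at 18.8 and 15.7 (control pool, then MKO pool) in cluster 0, 5.50 and 7.62 in cluster 1, and 6.21 and 6.72 in cluster 3. Hal, a periportal gene of histidine breakdown, was at 1.11 and 1.42, 8.99 and 3.16, and 3.28 and 7.35. The summed level of 12 periportal genes was 77.1 and 53.3 in cluster 1 and 49.7 and 75.6 in cluster 3, the same directions as for Cth and Bhmt. In cluster 0 that sum was 22 and 30.8, the opposite direction to Cth and Bhmt, and in cluster 3 single genes such as Ass1 (7.26 and 6.84) were not higher in MKO nuclei. The sum of 12 pericentral genes was 49.2 and 35.7 in cluster 0 and 17.1 and 18.4 in cluster 3. The part of zonal makeup in the members' differences was not tested, and cluster means without counts of nuclei do not show how nuclei were shared among the clusters in each pool.

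Few list genes were set apart to cluster 3 as Got1 and Bhmt were. Relative to clusters 0 and 1, over both pools, the log2 level in cluster 3 was 2.07 for Got1, 2.03 for Bhmt, 1.27 for Mat1a and 1.16 for Cth. In the control pool alone it was 0.89 for Got1 and -0.91 for Bhmt, and in the MKO pool alone 3.47 and 3.51. Over both pools it was 2.99 for Nnmt, 1.49 for Chka, the first enzyme of the choline route to phosphatidylcholine, and 1.39 for Atf5. Chka was higher in cluster 3 in control nuclei (15.2) than in MKO nuclei (11.9), unlike the members. In cluster 3 Nnmt was at 0.950 and 2.13, reaching the floor in the MKO pool only, and Atf5 was at 3.86 and 5.34. In clusters 0 and 1 Nnmt was at 0.0435 to 0.166 over both pools, so its 2.99 rests on levels far below the floor there.

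Over the 26 columns the 5 genes, among 1746 compared, whose log2 profile was closest to the mean profile of the 8 members in it were Etnk2 (Pearson r 0.969), Arg1 (0.968), Agmat (0.966), Marc1 (0.965) and Ctcflos (0.964). Over the 6 columns of clusters 0, 1 and 3 they were Dmgdh (0.970), Aass (0.961), Pcca (0.961), Clic4 (0.953) and Marc1 (0.944). Columns of 1 pool share a library, and these values describe likeness only. Dmgdh, which breaks down the dimethylglycine that Bhmt releases, was at 2.39 in control nuclei and 7.30 in MKO nuclei in cluster 3, and at 3.41 and 2.24 in cluster 1. Aass was at 6.30 and 15.0 in cluster 3 and at 9.89 and 3.81 in cluster 1, and Arg1 was at 7.12 and 17.0 in cluster 3 and at 8.71 and 7.20 in cluster 1. In cluster 0 Arg1 was higher in MKO nuclei (3.0 and 5.11), where 7 of the 10 members were lower.

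The members' values in cluster 3 were set beside those of bulk library MKO 3. The ratio of bulk MKO 3 to the mean of MKO 1 and MKO 2 was 2.96 for Bhmt, 2.86 for Cth, 2.15 for Mat1a and 1.66 for Bhmt2, whose log2 ratios between pools in cluster 3 were 3.39, 1.68, 0.74 and 1.18. It was 1.01 for Mat2a and 0.992 for Pemt, with log2 ratios of 0.04 and 0.16 in cluster 3. The order differed for other members. Cbs, at 0.20 in cluster 3, had a bulk ratio of 1.43. Got1 had the largest bulk ratio, 3.99, and a cluster 3 log2 ratio of only 1.04, while Gnmt had a bulk ratio of 1.37 and a cluster 3 log2 ratio of 1.80.

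Counting the 5 members, 82 genes were at least 2-fold higher in the MKO pool in cluster 3, and 78 of them were tested in bulk. Of these, 46 (59.0%) were highest in MKO 3, and of the 73 that are not members 41 (56.2%) were. Among all 2027 genes past the cluster 3 floor and tested in bulk the share was 16.2%. A gene passed that floor (1.24) if either pool reached it, so some of the 82 passed through the MKO pool only. Nnmt (0.950 in control nuclei and 2.13 in MKO nuclei) and Cyp7a1 (0.323 and 2.42) are examples. The shares are therefore given side by side with nothing read from them. This comparison of shares was made after the members' values were seen. It counted MKO 3 only and not the other MKO libraries, so whether the higher share is particular to MKO 3 was not tested. Membership of the MKO 3 liver in the pool was not given in the sources used here.

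**Figure D4:**
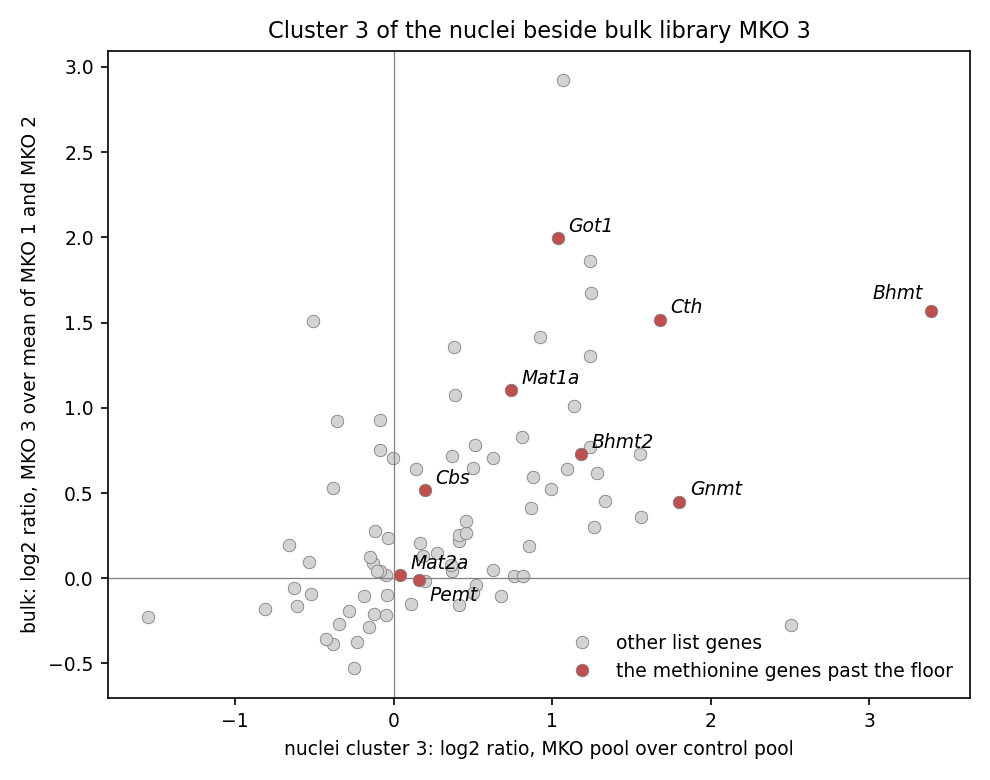
Log2 ratio of the MKO pool over the control pool in nuclei cluster 3 (x axis) against the log2 ratio of bulk MKO 3 over the mean of MKO 1 and MKO 2 (y axis), for the 9 methionine genes past the level floor (red) and 75 genes of the other lists (grey). Bhmt lies farthest right at 3.39, Got1 is the highest red point at 1.99, and Mat2a and Pemt lie near 0 on both axes. Of the 13 grey genes at or beyond 2-fold on the x axis 12 lie above 0 on the y axis, as do most of the other grey genes. Some of the 13, Nnmt and Cyp7a1 among them, reached the level floor in the MKO pool only.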

How the data were processed

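Bulk RNA-seq libraries of frozen liver (6) and 2 pools of sorted liver nuclei (10x Genomics Chromium, per the labels' protocols) were analysed. The submitters' processing notes name the mm10 build, Cell Ranger, Seurat 4.0.1, STAR, RSEM 1.3.3, FastQC and DESeq2. Settings and doublet handling were not given in the sources used here. Each deposited bulk signal value is a count divided by its library's size factor: 100% of values were whole multiples of 1 read within 0.01, and 1 read was worth 0.963 to 1.22. The authors' deposited log2 fold changes and p-values are quoted as such. The deposited nuclei signal is a mean per cluster and pool, each column summing to 10000, of unknown depth.

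The bulk test was limma-trend (limma 3.58.1, R 4.3.3) on log2(value + 1), two-sided, over 15249 genes with a mean of at least 1 (34 left out). Alternatives were edgeR 4.0.16 (quasi-likelihood) and DESeq2 1.42.0 on recovered reads, other pseudocounts, filters and scaling, a replicate block, and leaving out each library. No pair of libraries was alike within counting error (chi-square over its degrees of freedom, 28.1 to 73.1). Nuclei ratios used a pseudocount of 1/10 of the level floor. Read sharing was taken from 50-base stretches of GENCODE M21 transcripts, and motifs from RefSeq promoters. The fits were tested on simulated data. From each list, up to 4 called genes were to be named or, where none was called, the gene with the highest mean and that with the smallest p; in the nuclei, the gene highest in cluster 3 relative to clusters 0 and 1. Not every gene this rule takes is reported here. Genes named for their MKO 3 values (Aass, Arg1, Agxt, Nnmt, Hal, Sds, Gls2, Etnppl) and the zonal genes were chosen after these were seen. The members and lists were chosen with earlier results of these data known.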

Additional observations from a re-analysis of the deposited data

Results flagged for a closer look

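For 3 members the difference between pools ran in opposite directions in different hepatocyte-like clusters, beyond 2-fold each way. The log2 ratio of the MKO pool over the control pool for Cth was -1.26 in cluster 0, -2.82 in cluster 1 and 1.68 in cluster 3. For Bhmt it was -1.28 in cluster 1 and 3.39 in cluster 3. For Got1 it was -1.70 in cluster 1 and 1.04 in cluster 3. Each value rests on 1 pool per genotype, and the difference between clusters was not tested.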

How the results depend on the processing

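No member was called under any of the 14 alternatives. The only direction changes among members in bulk came without MKO 3, where the log2 fold change was -0.12 for Cbs and -0.10 for Bhmt2. The count of list genes lower in MKO livers was 1 with all libraries and ranged from 0 to 2 with 1 library left out (2 without MKO 1). Leave-one-out ranges of log2 fold changes that changed sign were -0.12 to 0.18 for Cbs, -0.10 to 0.33 for Bhmt2, -0.12 to 0.050 for Pcyt2, -0.020 to 0.47 for Ftcd, -0.18 to 0.42 for Glyctk and -0.14 to 0.11 for Atf5. Nr0b2 passed the threshold without MKO 1 (-1.17). In the nuclei, the log2 level in cluster 3 relative to clusters 0 and 1 was -0.64 for Cth and -0.91 for Bhmt in the control pool alone, against 3.31 and 3.51 in the MKO pool alone, and no member's ratio between pools changed direction in clusters 0, 1 or 3. DESeq2 called 50 genes lower over the whole table where limma called 13.

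Libraries with the same replicate number did not deviate together (correlations -0.109 to 0.0557). With the number as a replicate block, 0 members were called, the adjusted p was 0.429 for Cth and 0.326 for Got1, and the count of list genes lower in MKO livers was 1. The number of nuclei behind each cluster mean is unknown, which limits every ratio between pools.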

Other observations

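Of 17 glutathione genes in the nuclei table, 5 passed the level floor in cluster 0, 5 in cluster 1 and 1 in cluster 3, so the list's course in cluster 3 is not shown; 3 of them are given here. Gsta3, a glutathione S-transferase, was at 6.07 in control nuclei and 8.70 in MKO nuclei in cluster 0, at 3.02 and 7.71 in cluster 1, and at only 0.958 and 1.19 in cluster 3. Gpx1, a glutathione peroxidase, was at 1.28 and 2.70 in cluster 1 and at 0.793 and 1.21 in cluster 3. In bulk liver both went the other way, and neither was called. The bulk log2 fold change was -0.31 ± 0.20 for Gsta3 (limma adjusted p = 0.633) and -0.31 ± 0.15 for Gpx1 (limma adjusted p = 0.492). Gclc, lower in bulk MKO livers, was at 7.49 and 7.90 in cluster 0, 5.71 and 6.15 in cluster 1, and 4.10 and 3.12 in cluster 3. Of the 3 hepatocyte-like clusters, cluster 3 had the lowest level of each of these 3 genes in both pools.

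Cyp7a1, the rate-limiting enzyme of bile acid synthesis, was at 0.323 in control nuclei and 2.42 in MKO nuclei in cluster 3. In bulk it was at 1915 ± 634 in controls and 3241 ± 847 in MKO livers (SD, n = 3 each; log2 fold change 0.78 ± 0.26, limma adjusted p = 0.223), with MKO 2 and not MKO 3 highest. Gpx1, Gsta3 and Cyp7a1 in the nuclei were chosen after their values were seen.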
